A study of Mus musculus with 8 samples.

Results

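The tripartite motif (TRIM) genes encode proteins built from a RING domain, 1 or more B-box zinc fingers and a coiled coil, and most act as E3 ubiquitin ligases. In the count table of MC38, a line from a mouse colon adenocarcinoma, 66 of 29079 genes carried a mouse symbol made of Trim, a number and at most 1 letter from a to e, and these 66 protein-coding genes are the members described here. The rule used the symbol and no measured value. Of the 66, 47 had enough reads to be tested and 19 did not.

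The 4 groups were sequenced by mRNA sequencing, each with 2 libraries, and all were MC38 cells kept as a line. The WT line carried a CRISPR control and the KO line was edited with 1 guide against Piezo2, a mechanically gated ion channel. Each line was either not irradiated or given 1 X-ray dose of 30 Gy, with RNA taken 60 h after the dose. Whether the KO line is a single clone, whether the 2 libraries of a group are separate cultures, and whether the control RNA was taken at the same time are not stated in the labels, so p-values measure only the spread between these libraries, which may be technical.

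TRIM proteins join substrate recognition, often through a C-terminal PRY-SPRY domain, to transfer of ubiquitin by the RING. Many members act in innate immunity, where they modify sensors and adaptors of foreign nucleic acid or bind viral particles directly, and a part of the family is itself switched on by interferon. Other members work away from immunity, among them the chromatin corepressors Trim24, Trim28 and Trim33, the NHL-repeat proteins, which bind RNA or cytoskeletal partners, and the muscle RING finger proteins.

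Total counts ran from 10971004 to 19887180 per library, and levels are given as read counts scaled to the library's total (counts per M of total counts, CPM). Piezo2 had 0 to 12 reads per library, and at most 1 in any non-irradiated library of either line, so these counts gave no check of the KO label. Cdh1 (E-cadherin), an epithelial gene, had 526 to 1365 reads, whereas Krt18 and Cldn4 had at most 2 reads and Krt8 at most 20 in any library of this line, which the labels call epithelial. Of 8 macrophage markers, 3 were tested and all 3 (Ptprc, Cd68 and Lyz2) were called higher after irradiation in both lines, but Ptprc and Lyz2 passed the filter on low counts only through the irradiated libraries, so Cd68 alone could have gone either way. Their list summed to 3.68 to 7.79 CPM without irradiation and 38.1 to 64.6 CPM after it, and without Cd68 the other 7 summed to at most 0.273 and 2.21 CPM. C1qa, C1qb, Adgre1 and Tyrobp had at most 2 reads in any library, and 4 T and NK cell markers at most 3 reads. Fibroblast markers (4 genes) summed to 29.7 to 68.1 CPM without irradiation and 92 to 120 CPM after it, but did not move alike. Dcn had 24 to 157 reads per library without irradiation and 557 to 951 after it, and Lum at most 1 read. Dcn and Col1a1 were called higher after irradiation in both lines, whereas Pdgfra was called higher in WT and lower in KO. Endothelial markers (3 genes) summed to 1.42 to 2.46 CPM without irradiation and 4.72 to 6.16 CPM after it. The part of these marker genes in the results was not tested. In bulk RNA, more cells of a type and more RNA per cell cannot be told apart.

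Among the members called after irradiation more rose than fell, and this was uneven over the family. In WT, 18 of the 47 tested members rose and 6 fell (edgeR quasi-likelihood test, adjusted p under 0.05), which is 38.3 percent higher and 12.8 percent lower, beside 20.4 percent higher and 18.4 percent lower (38.9 percent either way) among all 14923 tested genes. In KO, 19 rose and 9 fell, 40.4 and 19.1 percent, beside 21.1 and 18.6 percent (39.7 percent either way) of all tested genes. With the replicate number as a block in the fit (same-numbered libraries of the groups taken as pairs), 22 rose and 9 fell in WT, beside 30.6 and 29.9 percent of all tested genes, and 23 rose and 10 fell in KO, beside 30.6 and 29.6 percent. The members' median log2 change was 0.34 in each line, against 0.03 and 0.02 over all tested genes. A part of the family, 17 tested members, is in none of the role lists described below. Of these, 4 rose and 4 fell in WT, with a median log2 change of 0.02. In KO 3 of them rose and 6 fell, with a median of 0.08. The role lists were chosen with earlier results of these data known. Trim5, Trim30c, Trim67 and Trim72 reached the filter of 0.623 CPM in irradiated groups only, so they had to be higher there to be tested at all, and without these 4 the counts were 16 higher and 6 lower in WT and 16 higher and 9 lower in KO, of 43. A set of 15 members rose in both lines, 5 fell in both (Trim16, Trim27, Trim28, Trim37 and Trim47), and 0 were called in opposite directions. The 15 include Trim5 and Trim67, which reached the filter in irradiated groups only. Of the tested members, 13 were called in none of the 5 comparisons (Trim3, Trim6, Trim8, Trim11, Trim13, Trim17, Trim33, Trim36, Trim43c, Trim46, Trim66, Trim68 and Trim72), and with the block 8 of these 13 were called in at least 1 (Trim3, Trim6, Trim8, Trim17, Trim33, Trim46, Trim66 and Trim68). For these counts across lines or comparisons no share of all tested genes was computed, so they describe the members only.

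Summed over the 66 members, the level was 2030 and 2070 CPM in the 2 unirradiated WT libraries, 2510 and 2420 in WT after 30 Gy, 1950 and 1940 in unirradiated KO, and 3430 and 3340 in KO after 30 Gy. The irradiated libraries of each line lay above its non-irradiated ones, and those of KO above those of WT. Per kilobase of exon, the highest mean levels in non-irradiated WT were those of Trim47 (72.4 CPM per kb), Trim35 (49.3), Trim28 (47.2) and Trim59 (46.0). In irradiated KO the order was headed by Trim25 at 107 CPM per kb and Trim30a at 82.0, followed by Trim59 at 59.5 and Trim47 at 47.8.

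**Figure D1:**
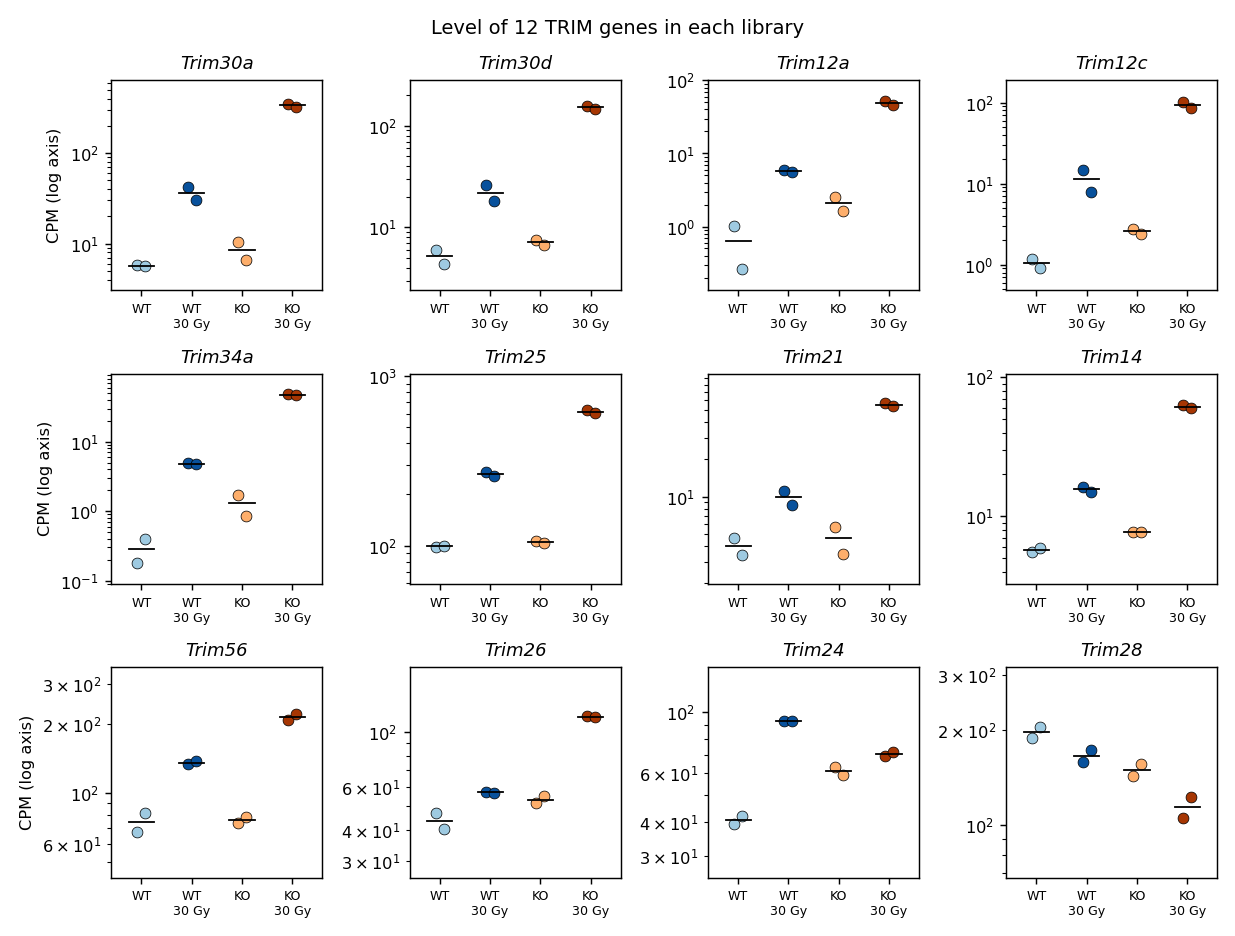
Level of 12 TRIM genes in each of the 8 libraries, in CPM on a log axis that differs between panels. Each point is a library and the line is the group mean. For 10 of the genes irradiated KO is the highest group, whereas Trim24 is highest in irradiated WT (92.7 and 92.9 CPM) and Trim28 lowest in irradiated KO (105 and 122 CPM).

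The largest responses lay in a cluster of 10 TRIM genes on chromosome 7 that holds Trim6, Trim34a, Trim5, Trim12a, Trim34b, Trim12c, Trim30b, Trim30c, Trim30a and Trim30d, from 104218793 to 104507849 (GRCm38). Trim5, Trim12a and Trim12c are the mouse relatives of primate TRIM5, which binds retroviral capsids, and mouse Trim30a restrains NF-kB signalling. Of its 8 tested genes, 6 rose after irradiation in WT with a median log2 change of 3.20 and 7 rose in KO with a median of 4.48, counting Trim5 and Trim30c, which passed the filter only through irradiated libraries. Of all tested genes 20.4 percent rose in WT and 21.1 percent in KO, and the medians over all of them were 0.03 and 0.02. Trim12a, Trim12c, Trim30a, Trim30d and Trim34a each passed the filter in a non-irradiated group and rose in both lines. The exception in both lines was Trim6 (log2 -0.49 ± 0.31 in WT and 0.58 ± 0.30 in KO, SE). The 10 genes together summed to 16.5 and 13.7 CPM in unirradiated WT, 99.9 and 70.5 in WT after 30 Gy, 28.2 and 20.4 in unirradiated KO, and 723 and 660 in KO after 30 Gy, so the 4 groups did not overlap.

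Trim30a stood at 5.75 and 5.65 CPM in unirradiated WT, 42.3 and 30.5 in WT after 30 Gy, 10.4 and 6.64 in unirradiated KO, and 351 and 324 in KO after 30 Gy. Neither line's irradiated libraries overlapped its non-irradiated ones, and both irradiated KO libraries lay above all others. The fitted change was 6.1-fold in WT (log2 2.61 ± 0.22, edgeR adjusted p = 0.000136) and 39.9-fold in KO (5.32 ± 0.22, adjusted p = 3.13e-06). Its neighbour Trim30d measured 6.05 and 4.34, 25.9 and 18.2, 7.57 and 6.69, and 158 and 146 CPM in the same order of groups. It rose by log2 2.01 ± 0.21 in WT (edgeR adjusted p = 0.00034) and 4.39 ± 0.21 in KO (adjusted p = 5.44e-06).

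Trim12c was lower in level, with 1.19 and 0.92 CPM in unirradiated WT, 14.8 and 7.84 in WT after 30 Gy, 2.73 and 2.41 in unirradiated KO, and 101 and 85.2 in KO after 30 Gy. The groups were ordered without overlap, and the change was log2 3.34 ± 0.36 in WT (edgeR adjusted p = 0.000384) and 5.15 ± 0.31 in KO (adjusted p = 1.77e-05). Trim34a, of the Trim34 pair, had 0.178 and 0.394 CPM in unirradiated WT, 4.94 and 4.71 in WT after 30 Gy, 1.73 and 0.855 in unirradiated KO, and 48.2 and 46.4 in KO after 30 Gy. Its log2 change was 4.0 ± 0.37 in WT and 5.25 ± 0.28 in KO (edgeR adjusted p = 0.000203 and 1.12e-05), and the WT value was 4.63 without replicate 2 of non-irradiated WT. Trim12a changed by log2 3.07 ± 0.41 and 4.58 ± 0.34 (edgeR adjusted p = 0.00101 and 5.62e-05), with 2.43 to 4.35 in WT depending on which non-irradiated WT library was left out.

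The remaining genes of the cluster had few reads. Trim5 rose from 7 to 90 reads in WT, 13.4-fold by the reads (95 percent exact interval 6.25 to 34.3, counting error only), with an edgeR adjusted p of 0.00551, and its fitted log2 change of 3.70 ± 0.72 was 2.93 without replicate 1 of irradiated WT. In KO the fitted change was 3.96 ± 0.67 (edgeR adjusted p = 0.00286), and 5.26 or 3.06 without replicate 1 or 2 of non-irradiated KO. Trim30c went from 6 reads in non-irradiated KO to 105 in irradiated KO, 16.7-fold (interval 7.4 to 46.4), and its call (edgeR adjusted p = 0.0358) was lost without replicate 2 of non-irradiated KO or either irradiated KO library (adjusted p 0.0702 to 0.128). Trim34b, which was not tested, had reads only in irradiated KO, 5 and 10 of them, at least 4.76-fold higher than non-irradiated KO against a floor of 3 reads over the group. Near-identical copies limit how these reads can be divided. Of the 50-base words of Trim34a transcripts, 59.7 percent also occur in other genes, and 39.8 percent in Trim34b. The share in other genes was 56.8 percent for Trim34b, 36.6 percent for Trim5, 33.7 percent for Trim12c and 10.5 percent for Trim12a. It was 6.0 percent for Trim30a and 7.5 percent for Trim30d. Trim34a also overlaps the antisense gene Gm47248 over 23.5 percent of its exon bases, where the reads of the pair cannot be told apart without a stated strand setting. The values of the Trim34 and the Trim5 and Trim12 genes are therefore uncertain one by one.

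**Figure D2:**
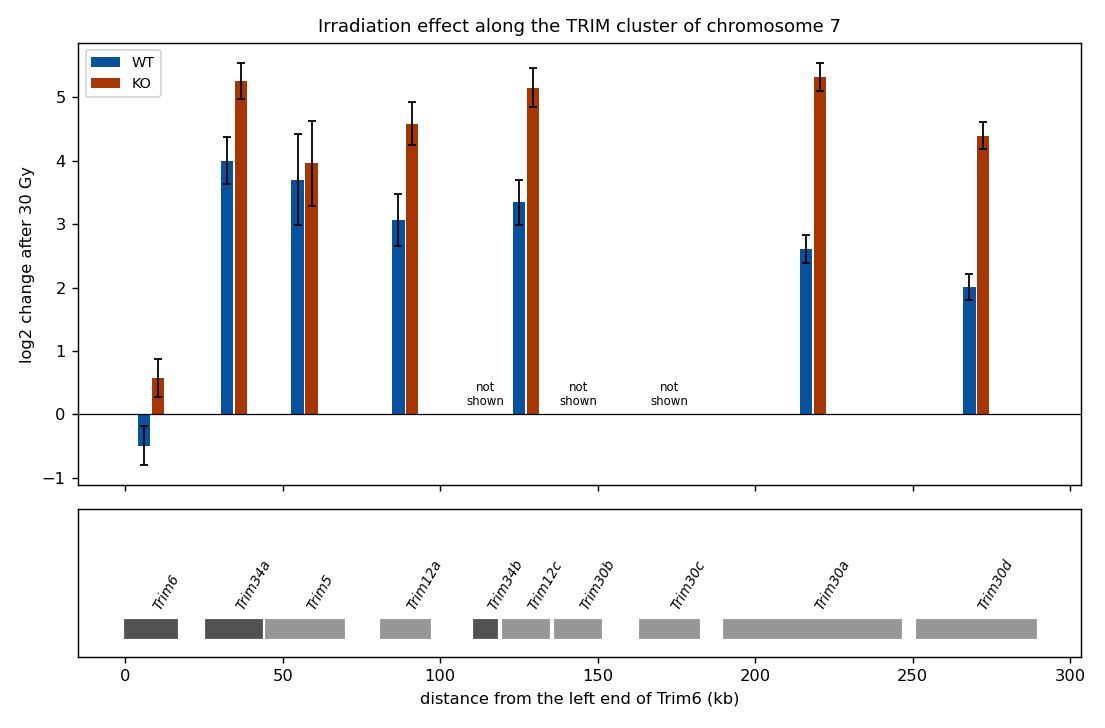
Irradiation effect (log2 change, bars, with SE) of the tested genes of the chromosome 7 cluster in WT (blue) and KO (red), over a map of the 10 genes by distance from the left end of Trim6 in kb, with dark boxes on the plus strand and light boxes on the minus strand. Trim34b and Trim30b were not tested and Trim30c had 0 reads in non-irradiated WT, so no bar is drawn. The bars of 6 genes stand between 2.01 and 5.32, whereas Trim6 lies at -0.49 and 0.58.

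The start regions of these genes were read in RefSeq promoter sequences (GRCm38.p6, 250 bases before to 50 after each start), where 51 of the 66 members were found. The word searched, GAAA, any 2 bases and GAAA again (on the other strand TTTC, any 2 bases and TTTC), is the core of the interferon-stimulated response element, a site bound by interferon regulatory factors. On either strand of any listed promoter it was present in 9 of the 13 listed members that rose in both lines and in 0 of the 38 other listed members, beside 1079 of 27025 genes of the whole table (3.99 percent). The 38 include members with too few reads to be tested, such as Trim9, Trim31 and Trim34b, and Trim30c, which was called higher in KO. Of the listed members that fell in either line, 0 of 7 held the word. Trim5 and Trim67, among the 13, were tested only through irradiated libraries. The windows below, those of the 9 members that carry the word, are shown because all 9 rose in both lines. They are given 5′ to 3′ along the gene's sense strand with the word in capitals, and those that lie past the transcription start are cut to 30 bases.
Trim21: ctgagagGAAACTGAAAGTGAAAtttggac
Trim34a: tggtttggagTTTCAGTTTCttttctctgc
Trim5: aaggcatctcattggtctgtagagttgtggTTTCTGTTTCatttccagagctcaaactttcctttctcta
Trim12a: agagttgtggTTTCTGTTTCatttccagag
Trim12c: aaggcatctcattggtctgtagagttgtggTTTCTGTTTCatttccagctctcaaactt
Trim30a: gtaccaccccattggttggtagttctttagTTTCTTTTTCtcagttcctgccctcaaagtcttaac
Trim30d: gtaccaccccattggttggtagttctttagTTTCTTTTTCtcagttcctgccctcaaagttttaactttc
Trim26: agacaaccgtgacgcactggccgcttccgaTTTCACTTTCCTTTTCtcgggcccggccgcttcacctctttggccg
Trim2: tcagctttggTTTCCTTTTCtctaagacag

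In the same order they lie at chr7:102565447-102565476 (minus strand), chr7:104244457-104244486 (plus), chr7:104288116-104288185 (minus), chr7:104315466-104315495 (minus), chr7:104353350-104353408 (minus), chr7:104465194-104465259 (minus), chr7:104507851-104507920 (minus), chr17:36836956-36837031 (plus) and chr3:84212791-84212820 (minus). Trim21 and Trim26 each hold 2 overlapping copies of the word, along the sense strand in Trim21 and its complement in Trim26. Trim2 had 5 listed starts and the word at 1 of them, which lies inside the gene (chr3:84160439-84306877). Trim30a had 2 listed starts, both with the word, and the window of 1 is shown. The windows shown are not independent. Aligned on the word, the promoters of Trim5 and Trim12a were identical over all 241 bases compared, and those of Trim30a and Trim30d over 276 of 295. The window of Trim12c also reads as that of Trim5 but for a few bases after the word. Over the whole promoters, Trim12c and Trim5 matched at 150 of 280 bases compared. Trim25, Trim56, Trim59 and Trim67 were listed without it, and Trim14 and Trim29 were not analysed here for promoter sequence. A match is a description of letters, not a measured binding site.

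Outside the cluster, the members that act in innate signalling rose in part. Of 12 listed genes 11 were tested; in WT 5 rose (Trim14, Trim21, Trim25, Trim26 and Trim56) and Trim27 fell, and in KO the same 5 and Trim23 rose while Trim27 and Trim65 fell, beside the 20.4 percent higher and 18.4 percent lower in WT and 21.1 and 18.6 percent in KO among all tested genes. The change of Trim23 was log2 0.50 ± 0.18 in WT (edgeR adjusted p = 0.057; 2.6e-06 with the block) and 0.56 ± 0.18 in KO (0.0397). The list's median log2 change was 0.34 in WT and 0.56 in KO, against 0.03 and 0.02 over all tested genes.

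Trim25 attaches ubiquitin chains to or near the RNA sensor RIG-I and is also a ligase for the ubiquitin-like protein ISG15. It had 97.7 and 99.9 CPM in unirradiated WT, 273 and 256 in WT after 30 Gy, 106 and 103 in unirradiated KO, and 628 and 601 in KO after 30 Gy. Each pair of libraries lay close together and the irradiated pairs were apart from each other and from the controls. The change was 2.57-fold in WT (log2 1.36 ± 0.07, edgeR adjusted p = 2.05e-05) and 5.74-fold in KO (2.52 ± 0.07, adjusted p = 8.75e-07). Over the 8 libraries, the tested members whose log2 CPM ran most like that of Trim25 were Trim56 (Pearson r = 0.9916), Trim30a (0.9904) and Trim30d (0.9852), as a description of libraries that share 4 groups.

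Trim21, a cytosolic receptor for the constant region of antibodies bound to virus, lies on chromosome 7 outside the cluster. Its level was 4.63 and 3.42 CPM in unirradiated WT, 11.2 and 8.6 in WT after 30 Gy, 5.74 and 3.47 in unirradiated KO, and 57 and 53.4 in KO after 30 Gy. The non-irradiated libraries of the lines overlapped and the irradiated ones did not. The log2 change was 1.23 ± 0.25 in WT (edgeR adjusted p = 0.00698) and 3.59 ± 0.25 in KO (adjusted p = 3.86e-05).

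Trim14, which has no RING and acts as an adaptor at the mitochondrial protein Mavs, measured 5.52 and 5.91, 16.2 and 15, 7.66 and 7.64, and 62.7 and 60.2 CPM, with WT before and after irradiation first and KO before and after it second. The groups did not overlap. It rose by log2 1.39 ± 0.10 in WT and 2.97 ± 0.10 in KO (edgeR adjusted p = 8.12e-05 and 1.54e-06). Its exons overlap those of Nans on the opposite strand over 31.3 percent of their bases, and without a stated strand setting the reads of the pair cannot be told apart there. Nans itself changed by log2 0.25 in WT and 0.39 in KO.

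Trim56, an antiviral ligase that acts on the STING pathway, was at 67.7 and 81.6 CPM in unirradiated WT, 133 and 137 in WT after 30 Gy, 73.6 and 78.3 in unirradiated KO, and 208 and 222 in KO after 30 Gy. Its rise was log2 0.80 ± 0.10 in WT and 1.46 ± 0.10 in KO (edgeR adjusted p = 0.000685 and 3.23e-05). Trim26, reported to act on Irf3, rose by 1.08 ± 0.09 in KO, from 51.7 and 54.8 to 116 and 115 CPM (edgeR adjusted p = 0.000113). In WT it went from 46.8 and 40.5 to 57.2 and 56.8 CPM, log2 0.33 ± 0.09 (edgeR adjusted p = 0.0272), a call lost without any of 5 libraries, replicate 2 of non-irradiated WT and all 4 irradiated libraries (adjusted p 0.0504 to 0.163). Trim8, Trim11 and Trim13, also of this list, were called in neither line, with log2 changes between 0.04 and 0.34 (with the block, Trim8 was called in WT, edgeR adjusted p = 0.0167).

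The PHD-bromodomain members split. Trim24, a coregulator of nuclear receptors that also targets p53, stood at 39.3 and 42.1 CPM in unirradiated WT, 92.7 and 92.9 in WT after 30 Gy, 63.3 and 59.4 in unirradiated KO, and 69.5 and 71.7 in KO after 30 Gy. The 4 groups did not overlap, and the KO libraries lay between those of non-irradiated and irradiated WT. It rose 2.19-fold in WT (log2 1.13 ± 0.07, edgeR adjusted p = 4.76e-05), and its change in KO was 0.17 ± 0.07 (adjusted p = 0.105; 0.0129 with the replicate number as a block).

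Trim28, the corepressor of KRAB zinc finger proteins and a substrate of the damage kinase ATM, was at 189 and 204 CPM in unirradiated WT, 158 and 173 in WT after 30 Gy, 143 and 156 in unirradiated KO, and 105 and 122 in KO after 30 Gy. It fell after irradiation by 0.31 on the log2 scale in WT and by 0.44 in KO (SE 0.10, edgeR adjusted p = 0.0432 and 0.0112). The WT call was lost without any of 5 libraries, the 4 of WT and replicate 1 of non-irradiated KO (edgeR adjusted p 0.0511 to 0.184), and the KO call without replicate 2 of non-irradiated KO or replicate 1 of irradiated KO (0.068 to 0.074). Trim33, which modifies Smad4 in TGF-beta signalling, measured between 87.8 and 118 CPM over the 8 libraries and was called in no comparison (log2 -0.16 ± 0.08 in WT and -0.17 ± 0.08 in KO, edgeR adjusted p = 0.14 and 0.124; 0.00627 and 0.00604 with the block). Trim66 changed by log2 1.02 ± 0.50 and 1.12 ± 0.51, which did not pass the test (edgeR adjusted p = 0.149 and 0.122; 0.0308 and 0.0123 with the block).

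Among the NHL-repeat members, Trim2, a ligase known from neurons, rose in both lines, from 64.4 and 66 to 120 and 125 CPM in WT and from 90.7 and 85.8 to 132 and 126 in KO. These are log2 changes of 0.85 ± 0.07 and 0.51 ± 0.07 (edgeR adjusted p = 0.000119 and 0.000974). Trim32, mutated in a limb-girdle muscular dystrophy, rose in KO (0.34 ± 0.09, edgeR adjusted p = 0.0153) and had a WT value of 0.12 ± 0.08. Its KO call was lost without replicate 2 of either KO group (edgeR adjusted p 0.0962 to 0.123). Trim3 and Trim71, the latter an RNA-binding protein of early embryos, were called in neither line, with Trim71 at -0.46 ± 0.19 in WT (edgeR adjusted p = 0.0902; 0.0266 with the block) and Trim3 at 0.15 ± 0.10 (0.249; 0.0478 with the block).

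Of the COS-box and muscle RING finger members 3 of 7 were tested, and only Trim67 was called, from 0 reads in non-irradiated WT to 9 in irradiated WT, at least 3.13-fold, and from 1 to 23 reads in KO, 21.9-fold with an exact interval of 3.56 to 902. Its WT and KO calls (edgeR adjusted p = 0.0375 and 0.021) were lost in 6 and 4 of the 8 fits that left out a library, among them those without any 1 library of the line concerned (0.0526 to 0.178 and 0.0684 to 0.0898). Trim9, Trim54, Trim55 and Trim63 had at most 3 reads in any library.

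Among members outside these role lists, Trim29, a RING-less protein linked to the DNA damage response, rose from 0.356 and 0.263 CPM in non-irradiated WT to 2.07 and 2.5 in irradiated WT, and from 1.37 and 0.905 to 3.38 and 2.54 in KO. The log2 changes were 2.79 ± 0.41 and 1.37 ± 0.36 (edgeR adjusted p = 0.00167 and 0.0195), and the KO call was lost without replicate 2 of non-irradiated KO or replicate 1 of irradiated KO (0.11 to 0.111). Trim59, a membrane-anchored member, rose by 0.70 ± 0.15 in WT and 0.45 ± 0.15 in KO (edgeR adjusted p = 0.00782 and 0.0442), and its WT call was lost without replicate 2 of non-irradiated WT (0.0516) and its KO call in 5 of the 8 fits that left out a library, up to 0.247. Trim7 (0.80 ± 0.23) and Trim62 (0.83 ± 0.23) rose in WT (edgeR adjusted p = 0.0294 and 0.0238), calls that were lost without any of the 4 WT libraries (0.0614 to 0.141). In KO their changes were 0.27 ± 0.23 and 0.65 ± 0.22 (edgeR adjusted p = 0.412 and 0.0522; 0.131 and 0.00525 with the block).

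Trim16, which binds galectins on damaged endomembranes, had the largest fall among members that fell in both lines, from 47.5 and 50.4 to 27.5 and 24.3 CPM in WT and from 41.5 and 38.3 to 23.5 and 20.6 in KO. The irradiated libraries all lay below the non-irradiated ones, and the fall was 0.98 on the log2 scale in WT and 0.89 in KO (SE 0.10 and 0.11, edgeR adjusted p = 0.000375 and 0.000558). Trim47, the member with the highest level per length without irradiation, fell by 0.41 in WT and by 0.56 in KO (SE 0.08, edgeR adjusted p = 0.00606 and 0.00139). Trim37, a ligase of centriole assembly mutated in mulibrey nanism, fell by 0.32 in WT and by 0.70 in KO (SE 0.09, edgeR adjusted p = 0.0221 and 0.000677), and the WT call was lost without any of the 4 WT libraries (0.0602 to 0.1). Trim27 fell by 0.33 in WT and by 0.43 in KO (edgeR adjusted p = 0.0343 and 0.0129), lost without replicate 2 of non-irradiated WT or either irradiated WT library (0.109 to 0.175) and without replicate 2 of either KO group (0.0674 to 0.0725). Trim35, on chromosome 14, fell in WT by 0.28 (edgeR adjusted p = 0.0119), lost without replicate 1 of non-irradiated or 2 of irradiated WT (0.0608 to 0.0694). In KO, Trim23 (log2 0.56) and Trim41 (0.25) rose, and Trim39 (-0.30), Trim43a (-1.42), Trim44 (-0.30) and Trim65 (-0.26) fell, with edgeR adjusted p between 0.0187 and 0.0437, and each of these calls was lost in at least 4 of the 8 fits that left out a library.

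**Figure D3:**
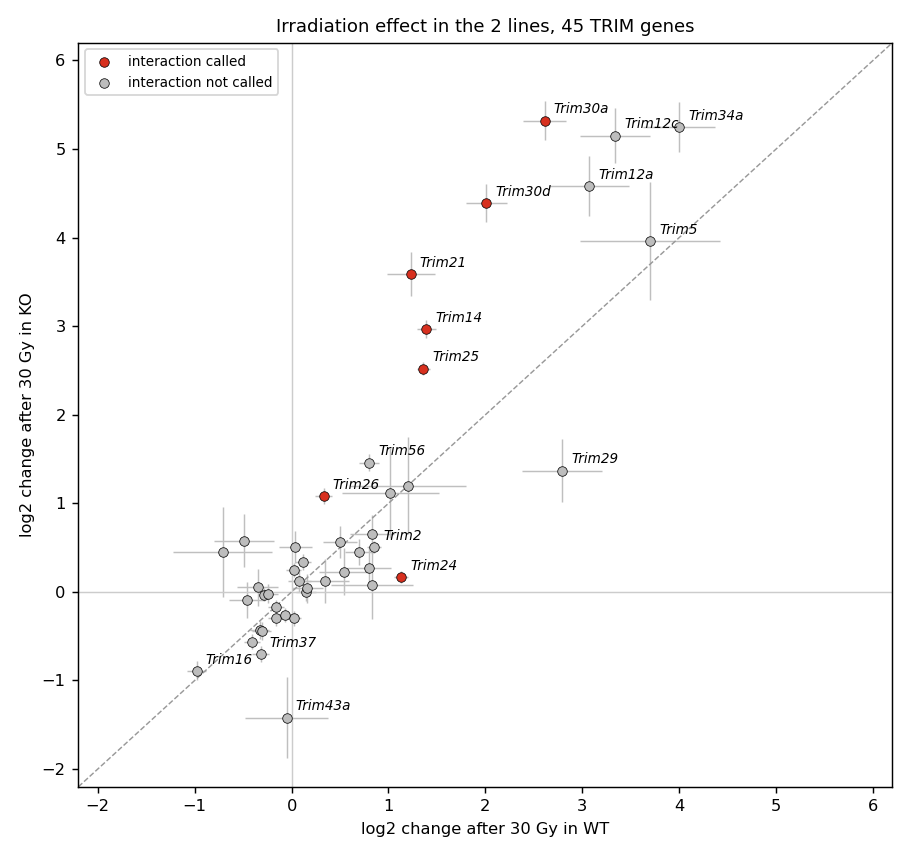
Log2 change after 30 Gy in WT (horizontal axis) and in KO (vertical axis) of 45 tested TRIM genes, with SE bars and a dashed line of equal change. Trim30c and Trim67 are left out for their low reads. Red marks the 7 genes whose change differed between the lines in the test of the interaction: 6 lie above the line and Trim24, at 1.13 and 0.17, lies below it.

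Whether the irradiation effect differed between the lines was tested as the interaction, the log2 change in KO minus that in WT. Of the 47 members 6 had a higher change in KO and 1 a lower one (edgeR adjusted p under 0.05), 12.8 and 2.13 percent, beside 1.37 and 0.57 percent (1.94 percent either way) of all tested genes. With the replicate number as a block the counts were 10 and 5, beside 8.15 and 8.55 percent of all tested genes. The members' median interaction was 0.04, against -0.01 over all tested genes.

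The larger changes in KO were those of Trim30a (2.71 ± 0.31, edgeR adjusted p = 0.00537), Trim30d (2.38 ± 0.29, 0.00732), Trim21 (2.36 ± 0.35, 0.0162), Trim14 (1.58 ± 0.14, 0.00223), Trim25 (1.16 ± 0.10, 0.002) and Trim26 (0.75 ± 0.13, 0.0335). All 6 belong to the chromosome 7 cluster or the innate signalling list, which hold 8 and 11 of the 47 tested members. Both lists were chosen with earlier results of these data known, so this membership is a description only. With the block, 10 members had a higher change in KO: 4 of the cluster, 5 of the innate signalling list and Trim35, which is in neither. The calls of Trim14, Trim25 and Trim30a held whichever library was left out. That of Trim30d was lost without replicate 2 of non-irradiated KO (edgeR adjusted p = 0.053). That of Trim21 was lost without any of 5 libraries, replicate 1 of non-irradiated WT, replicate 2 of irradiated WT, replicate 2 of non-irradiated KO and both of irradiated KO (0.0509 to 0.0874), and that of Trim26 without any library but replicate 2 of non-irradiated WT (0.0777 to 0.146). Trim24 had the opposite sign, -0.96 ± 0.10 (edgeR adjusted p = 0.0043), a call that held in every fit that left out a library.

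For the other strong responders the interaction did not pass the test without the block. It was 0.67 ± 0.14 for Trim56 (edgeR adjusted p = 0.0635; 1.68e-09 with the block), 1.82 ± 0.52 for Trim12c (0.181; 0.000496), 1.51 ± 0.58 for Trim12a (0.339; 0.017) and 1.24 ± 0.58 for Trim34a (0.448; 0.194). For Trim5 the interaction was 0.26 ± 1.12 (edgeR adjusted p = 0.979, and 0.864 with the block). Trim29 had the opposite sign, at -1.42 ± 0.55 (edgeR adjusted p = 0.342, and 0.141 with the block). Trim67 (-1.04 ± 1.22) and Trim30c (-0.65 ± 1.15), with few reads, also lay below 0 and were not called. The block also called Trim2, Trim37, Trim44, Trim35 and Trim59, at -0.34, -0.39, -0.32, 0.25 and -0.25. Trim28 (-0.13 ± 0.14) and Trim33 (-0.01 ± 0.11) had intervals around 0.

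The lines were also compared within each condition. In KO against WT without irradiation 7 of 47 members were higher and 6 lower (edgeR adjusted p under 0.05), 14.9 and 12.8 percent, beside 10.4 and 9.49 percent (19.9 percent either way) of all tested genes, and 15 and 11 with the replicate block, beside 21.4 and 23.5 percent. After irradiation 12 were higher and 5 lower, 25.5 and 10.6 percent, beside 13.3 and 11.4 percent (24.6 percent either way) of all tested genes, and 17 and 11 with the block, beside 25.2 percent in each direction. Without the 4 members that reached the filter in irradiated groups only, 11 of 43 were higher in irradiated KO and 5 lower. These comparisons share libraries with those of irradiation. Whole chromosomes differed between the lines as well: the median of the 1148 tested genes of chromosome 7, which holds 16 members, was log2 0.37 higher in KO without irradiation and 0.38 after it, while the median irradiation effect there was 0.00 in WT and 0.01 in KO. What part of a KO effect on chromosome 7 goes with that shift cannot be told apart here, so values less the chromosome median are given beside it.

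In the cluster, Trim34a was higher in KO by log2 2.06 ± 0.45 without irradiation (edgeR adjusted p = 0.017; 1.69 less the chromosome median) and by 3.31 ± 0.24 after it (9.53e-05; 2.93). The first call was lost without replicate 1 of either non-irradiated group (0.0512 to 0.105), and its value was 2.69 without replicate 2 of non-irradiated WT. Trim12a was higher by 1.60 ± 0.46 (edgeR adjusted p = 0.0464) and by 3.11 ± 0.30 (0.000359), or 1.23 and 2.73 less the chromosome median, the first being lost without any library but replicate 1 of non-irradiated WT (0.0629 to 0.17) and running from 0.96 to 2.89. For Trim30a the difference was 0.52 ± 0.25 without irradiation (edgeR adjusted p = 0.189; 0.00512 with the block; 0.15 less the chromosome median) and 3.23 ± 0.19 after it (3.62e-05; 2.85). Trim30d, at 0.43 ± 0.23 (edgeR adjusted p = 0.241; 0.0214 with the block) and 2.80 ± 0.19 (5.98e-05), and Trim12c, at 1.25 ± 0.43 (0.0811; 0.000725 with the block) and 3.07 ± 0.26 (0.000184), gave the same calls as Trim30a, and less the chromosome median they stood at 0.06 and 2.43 and at 0.88 and 2.69.

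Of the innate signalling members, Trim25 differed between the lines by 0.07 ± 0.07 without irradiation (edgeR adjusted p = 0.55) and was 2.35-fold higher in KO after it (log2 1.23 ± 0.07, adjusted p = 3.11e-05). For Trim21 the values were 0.13 ± 0.27 (edgeR adjusted p = 0.794) and 2.50 ± 0.23 (0.00028), and less the chromosome median -0.24 and 2.12. Trim14 was higher by 0.41 ± 0.11 (edgeR adjusted p = 0.0353, lost in every fit that left out a library, 0.0535 to 0.162) and by 1.99 ± 0.10 (1.6e-05). After irradiation Trim26 was higher in KO by 1.03 ± 0.09 and Trim56 by 0.68 ± 0.10 (edgeR adjusted p = 0.000244 and 0.00207), and their differences without it were 0.28 ± 0.09 and 0.02 ± 0.10 (0.0779 and 0.943; 0.000832 and 0.833 with the block).

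**Figure D4:**
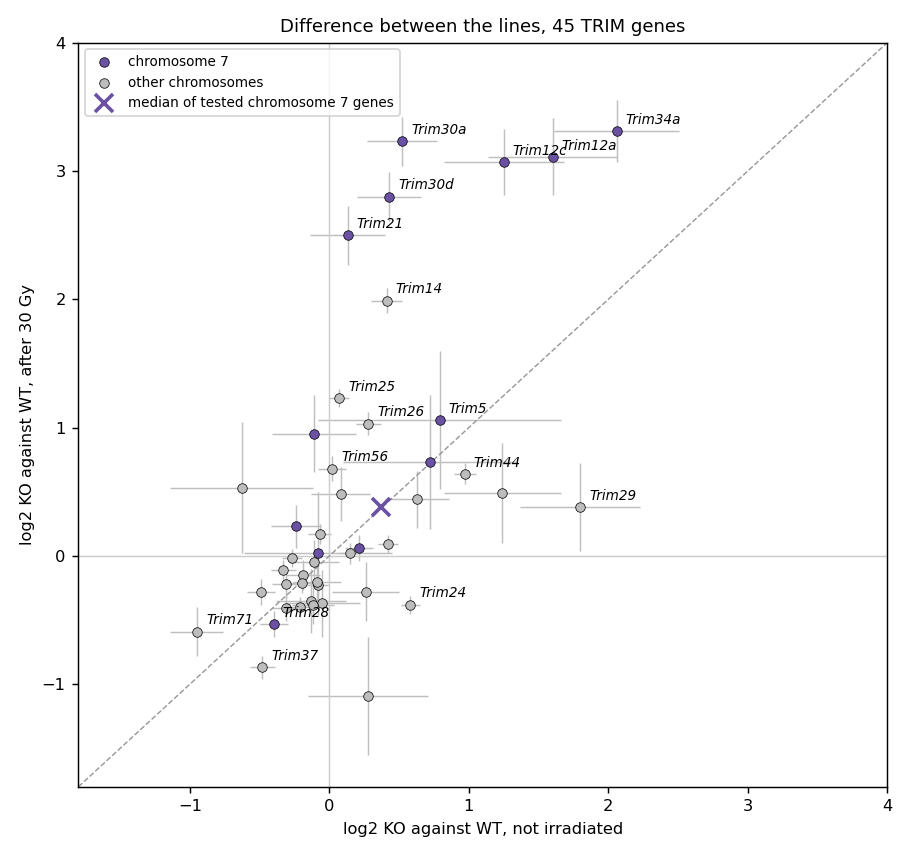
Log2 difference of KO against WT in non-irradiated (horizontal axis) and irradiated libraries (vertical axis) of 45 tested TRIM genes, with SE bars and a dashed line of equal difference. Trim30c and Trim67 are left out for their low reads. Purple points lie on chromosome 7, whose median tested gene is the cross at 0.37 and 0.38. Trim30a, Trim30d, Trim21 and Trim25 sit near the cross or 0 on the horizontal axis and between 1.23 and 3.23 on the vertical one.

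Some members differed between the lines in either condition. Trim44, a RING-less member with a ubiquitin-binding zinc finger, was at 31 and 32.2 CPM in unirradiated WT, 34.4 and 32.6 in WT after 30 Gy, 63.8 and 60.6 in unirradiated KO, and 53.1 and 50.3 in KO after 30 Gy. All KO libraries lay above all WT ones, by 1.95-fold without irradiation (log2 0.97 ± 0.08, edgeR adjusted p = 0.000299) and 1.56-fold after it (0.64 ± 0.08, 0.00116). Trim37 was lower in KO by log2 -0.48 ± 0.09 and -0.87 ± 0.09 (edgeR adjusted p = 0.00762 and 0.00041), the first call being lost without replicate 2 of non-irradiated WT or replicate 1 of non-irradiated KO (0.0517 to 0.058). Trim28 was lower by -0.40 ± 0.10 and -0.53 ± 0.10 (edgeR adjusted p = 0.0284 and 0.00772), and by -0.77 and -0.91 less the median of its chromosome 7. Leaving out any of the 4 non-irradiated libraries ended its first call (0.0618 to 0.163), and leaving out replicate 1 of irradiated KO the second (0.0582).

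Trim24 changed sides. It was higher in KO without irradiation (log2 0.58 ± 0.07, edgeR adjusted p = 0.00206) and lower after it (-0.38 ± 0.07, 0.00816), the latter call being lost without replicate 1 of irradiated WT or either irradiated KO library (0.0528 to 0.0674). Without irradiation Trim2 (0.42 ± 0.07) and Trim29 (1.80 ± 0.43) were also higher in KO, and Trim32 (-0.33 ± 0.09), Trim35 (-0.27 ± 0.07), Trim45 (-0.49 ± 0.10) and Trim71 (-0.95 ± 0.19) lower. Of all 13 calls of that comparison, only those of Trim2, Trim24 and Trim44 held in each fit that left out a library. After irradiation Trim27 (-0.41 ± 0.10) and Trim65 (-0.40 ± 0.08) were lower in KO. Trim30c reached the filter in irradiated KO only, so it had to be high there to be tested at all. It was called higher in KO, with 5 reads in irradiated WT and 105 in irradiated KO (19.9-fold, exact interval 8.28 to 62.7). Those 3 calls were each lost without any of the 4 irradiated libraries (edgeR adjusted p up to 0.178).

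The genes that TRIM proteins work with were counted from lists of pathway genes. Among genes of interferon receptors and transcription, Irf7, a transcription factor of the interferon response, rose by log2 4.04 ± 0.28 in WT and 5.36 ± 0.23 in KO, and Irf9 by 1.91 ± 0.12 and 2.41 ± 0.12. Irf1 rose by 1.28 ± 0.10 and 2.43 ± 0.10, with a larger change in KO (interaction 1.15 ± 0.14, edgeR adjusted p = 0.00661). Ifnar1, Ifnar2, Jak1 and Irf3 were called in neither line without the block. With it both lines gave calls for Ifnar1 at log2 0.12 and -0.13 (edgeR adjusted p = 0.0415 and 0.0449, WT first) and for Jak1 at 0.22 and 0.23 (1.03e-05 and 7.76e-06), while Ifnar2 was called in KO (0.0442) and Irf3 in neither line. Of 8 genes of RIG-I-like receptor signalling, 5 rose in WT and 7 in KO, beside 20.4 and 21.1 percent of all tested genes, and Ddx58 (RIG-I, the sensor that Trim25 modifies) rose by 2.72 ± 0.08 and 3.93 ± 0.08. Rnf135, another ligase of RIG-I, rose by 0.79 ± 0.15 and 2.15 ± 0.15 (interaction edgeR adjusted p = 0.0206).

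Most ubiquitin-conjugating enzymes, which hand ubiquitin to the RING, did not pass the test without the block. Of 9 tested, 1 fell in WT (Ube2e1, -0.66 ± 0.21) and 1 rose in KO, Ube2l6, the conjugating enzyme of ISG15, by log2 2.58 ± 0.21 with an interaction of 2.10 ± 0.30 (edgeR adjusted p = 9.28e-05 and 0.0138). Of all tested genes 18.4 percent fell in WT and 21.1 percent rose in KO without the block. With the replicate block 6 of the 9 enzymes were called lower in each line, beside 29.9 percent of all tested genes in WT and 29.6 percent in KO. Of TRIM proteins with other symbols, Pml, the organiser of PML nuclear bodies, rose by 0.49 ± 0.11 in WT and 1.85 ± 0.12 in KO (interaction 1.36 ± 0.16, edgeR adjusted p = 0.00617). Mid1 fell by 0.56 in WT and by 0.69 in KO (edgeR adjusted p = 0.00443 and 0.00193), and Mid2 was called in neither line.

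The 19 members that were not tested were Trim9, Trim10, Trim15, Trim30b, Trim31, Trim34b, Trim38, Trim40, Trim42, Trim43b, Trim50, Trim52, Trim54, Trim55, Trim60, Trim63, Trim69, Trim75 and Trim80, with at most 10 reads in any library. Over the whole family, 11 members had 0 reads in every non-irradiated library, where 0 reads allow up to 0.151 to 0.273 CPM per library (3 counts, counting error only). Their expression was thus not detectable at this depth, which is not a measure of absence.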

How the data were processed

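The authors deposited whole-number read counts per Ensembl gene, with no normalization, for 8 mRNA libraries. HISAT2, HTSeq and DESeq2 and the mm10 build are named in the submitters' processing notes, and neither the strand setting nor the treatment of reads with several positions is stated there. Symbols and coordinates came from GENCODE M21 (GRCm38).

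The counts were fitted in R 4.3.3 with edgeR 4.0.16 (TMM factors 0.975 to 1.024, filterByExpr with a minimum count of 10 and a minimum total of 15, 1 coefficient per group, 4 residual degrees of freedom) and tested with the two-sided quasi-likelihood F test. P-values were Benjamini-Hochberg adjusted over all 14923 tested genes, which held 99.86 to 99.93 percent of each library's counts, and genes were called under 0.05. Errors are standard errors derived from F, with n = 2 libraries a group. Folds with few reads are ratios of reads with 95 percent exact (Clopper-Pearson) intervals.

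The members and lists were chosen with earlier results of these data known. Members called in any comparison were named, with values by library for those with the largest changes and for 8 anchor genes. Replicate numbers were taken as pairing only in the replicate block, an alternative to the main fit, which ignored them. The deviations of same-numbered libraries correlated at 0.564 to 0.611 in all 6 pairs of groups, although the labels do not say what a number shares. The fits that left out a library also had no block. With the block, 0 of the members' calls made without it were ended. Alternatives were DESeq2 1.42.0 (its test, and its size factors in edgeR), no filter, the replicate block, only the groups compared, each library left out, and KO effects less the chromosome median. Protein sequences were not used here. Shared words of 50 bases between GENCODE transcripts were counted in their place, and this comparison and the alignment of promoters were chosen after seeing the data. A single gene of the interferon list, and the counts of that list, are not reported here.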

Additional observations from a re-analysis of the deposited data

Results flagged for a closer look

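For 7 members the irradiation effect differed between KO and WT in the edgeR test of the interaction (log2 change in KO minus that in WT). It was larger in KO for Trim14 (1.58), Trim21 (2.36), Trim25 (1.16), Trim26 (0.75), Trim30a (2.71) and Trim30d (2.38). It was smaller in KO for Trim24 (-0.96), whose non-irradiated level was already higher in KO (61.3 against 40.7 CPM on average). Of these, the calls of Trim14, Trim24, Trim25 and Trim30a held in each of the 8 fits that left out a library. Groups of 2 libraries were not examined for single libraries that stand apart.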

How the results depend on the processing

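No called value changed direction under any alternative; of uncalled values, Trim21 (KO against WT without irradiation) went from 0.13 to -0.24 less the chromosome median, and some changed sign when a library was left out. DESeq2 called 5 members lower after irradiation in KO, against 9. The replicate block raised the counts of KO effects without irradiation to 15 higher and 11 lower (from 7 and 6), of KO effects after irradiation to 11 lower (from 5), and of the interaction to 10 higher and 5 lower (from 6 and 1); fitting only the groups compared gave 3 higher and 3 lower without irradiation. The causes were not tested. Leaving out 1 library gave 13 to 19 higher and 2 to 6 lower for irradiation in WT, 12 to 19 and 3 to 8 in KO, 3 to 6 and 0 to 5 for KO without irradiation, 11 to 12 and 1 to 5 for KO after it, and 3 to 6 and 1 to 1 for the interaction. Calls held in all 8 such fits for 15 of 24, 15 of 28, 3 of 13, 12 of 17 and 4 of 7 members in these comparisons. For single members, DESeq2 size factors changed 0 calls of 101, DESeq2 ended 13 and added 1, and the filter's removal ended 4 and added 2. The block added 7 of these calls and ended 0, and over all 47 tested members and 5 comparisons it added 44 and ended 0. Fitting only the groups compared ended 13. Where a library was left out, the lone library of its group was assumed to vary like the other groups. Depth limits the members under about 1 CPM, where 1 library moved fitted values by over 1.5 times (Trim5, Trim12a, Trim30c, Trim34a and Trim67).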
